A study of Mus musculus with 6 samples.

Results

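Neuropilins, semaphorins and plexins are a ligand and receptor system, and 9 of its genes were read in the RNA of miR-142-deficient regulatory T (Treg) cells. The 9 genes, taken by symbol from the 24421 genes of the count table, were the neuropilins Nrp1 and Nrp2, the semaphorins Sema4a, Sema4b, Sema4d and Sema7a, and the plexins Plxnb2, Plxnc1 and Plxnd1. All 9 were found, all 9 had enough counts to be tested, and they lie on 9 different chromosomes. RNA was sequenced from CD4+YFP+ cells of the spleen of female C57BL/6 mice aged 8 to 11 weeks, with 3 Foxp3Cre mice (WT) and 3 Foxp3Cre miR-142 fl/fl mice (KO), 1 library per mouse and no treatment of the cells. Both groups carry the Foxp3Cre allele, in which the Foxp3 promoter drives a YFP-Cre fusion, so the groups differ in the floxed miR-142 gene that Cre removes from cells expressing Foxp3. The KO mice of this study develop systemic autoimmune disease, so loss of miR-142 inside the Treg cell and the inflamed state of the animal cannot be told apart in these libraries.

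Semaphorins are secreted or membrane-bound proteins best known for steering growing axons, and several of them also act between immune cells. Plexins are their main receptors, and the plexin tail acts on small GTPases to change adhesion and the actin cytoskeleton. Neuropilins have a short tail and work as co-receptors, for secreted semaphorins with plexins and for vascular endothelial growth factors (VEGF) with their receptor kinases. In the mouse, Nrp1 is a surface marker of Treg cells that arise in the thymus, and its binding to Sema4a on other cells is known to support Treg cell stability.

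The deleted gene encodes 2 mature microRNAs, shown because they are what the KO cells lack. They lie at chr11:87756867-87756887 (miR-142-5p) and chr11:87756903-87756925 (miR-142-3p) on the plus strand of GRCm38, with the sequences of RefSeq, and capitals mark bases 2 to 8, the seed.
miR-142-5p: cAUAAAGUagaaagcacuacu
miR-142-3p: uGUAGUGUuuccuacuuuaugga

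A microRNA pairs through its seed with short matches in 3′ untranslated regions (UTRs). The longest 3′ UTR that GENCODE annotates for a protein-coding transcript of each gene was searched, on the transcript strand, for ACACTAC and AACACTA, the matches to bases 2 to 8 and 3 to 9 of miR-142-3p, and for ACTTTAT and TACTTTA, the same for miR-142-5p. AACACTA and ACACTAC can overlap by 6 bases, as can TACTTTA and ACTTTAT. Of the 9 genes, 3 held a match and 6 held none of the 4 motifs. The 3 matches are shown with 11 bases on either side, capitals marking the matched bases, all of them in the last exon.
Sema7a, miR-142-5p, chr9:57961841-57961869, plus strand: agcaactcaagACTTTATcttctcgagaa
Plxnc1, miR-142-3p, chr10:94791006-94791034, minus strand: cttttttttctAACACTAgtgtctaaagc
Plxnd1, miR-142-3p, chr6:115955362-115955391, minus strand: ccatatcccagAACACTACctcatccacct
Plxnd1 held both miR-142-3p motifs, which overlap by 6 bases and together span 8, and none of the 3 runs went on with the A that makes an 8-base site of the seed match. Such matches are common. Either miR-142-3p motif was present in 14.1% of the 10786 tested genes with an annotated 3′ UTR, and in 2 of the 9 genes. Either miR-142-5p motif was present in 22.2% of those genes, and in 1 of the 9. The 3′ UTR searched for Nrp1 is 549 bases long, against 3325 bases for Nrp2.

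The libraries held between 13883069 and 24042994 counts, and values are given as counts per 1000000 counts of the library (CPM), after TMM normalization of library sizes. A count of 3 corresponded to at most 0.227 CPM. The antisense annotation over the deleted locus, Mir142b, fell from between 4.14 and 9.05 CPM in WT to between 0.342 and 0.389 CPM in KO. All 8 Treg cell markers were detected. Of these, Il2ra (3.41-fold, FDR = 0.00088) and Tnfrsf18 (1.76-fold, FDR = 0.00877) were called higher in KO. Foxp3 lay between 536 and 595 CPM in WT and between 642 and 749 CPM in KO and was not called (FDR = 0.083), and Cd4 and Cd3e were below every WT library in every KO library and were not called. KO replicate 1 stood apart. Its summed CPM was 948 for 10 neutrophil genes, 2972 for 12 monocyte and macrophage genes, 148 for 7 dendritic cell genes and 291 for 9 B cell genes, and every gene of these lists was highest in that library. In the WT libraries these sums reached at most 4.93, 56.8, 1.22 and 41.6 CPM. KO replicates 2 and 3 were also above every WT library in the neutrophil sum (9.39 and 12.7 CPM) and the monocyte and macrophage sum (160.4 and 80.2 CPM). The same held for the sum of 7 CD8 T and NK cell genes (60.5 and 51.3 CPM). That sum was 26.7 to 29.8 CPM in WT and 96.9 CPM in KO replicate 1. Each of these sums leaned on a single gene in KO replicates 2 and 3. These were Mmp9 (8.93 and 8.01 CPM), Ccr2 (81.5 and 60.9 CPM) and Eomes (42.0 and 29.8 CPM). In WT they reached at most 4.62, 49.1 and 6.69 CPM. Other genes of the lists went the other way, as Cd68 (4.09 and 3.08 CPM) and Klrb1c (0.303 and 0.821 CPM) lay below every WT library. KO replicates 2 and 3 were below every WT library in the dendritic cell sum (0.757 and 0.684 CPM) and the B cell sum (9.54 and 13.3 CPM). Leaving out KO replicate 1 therefore does not make the marker sums of the groups alike. The sum of 6 erythroid genes, of which 4 were at 0 in all libraries, was 11.99 CPM in KO replicate 1 and at most 1.82 CPM elsewhere. The endothelial and stromal list reached 3.66 CPM in KO replicate 1 and at most 2.83 CPM elsewhere. For each of the 9 genes the log2 fold change is also given without KO replicate 1, and the part of other cells in the results was not tested.

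**Figure D1:**
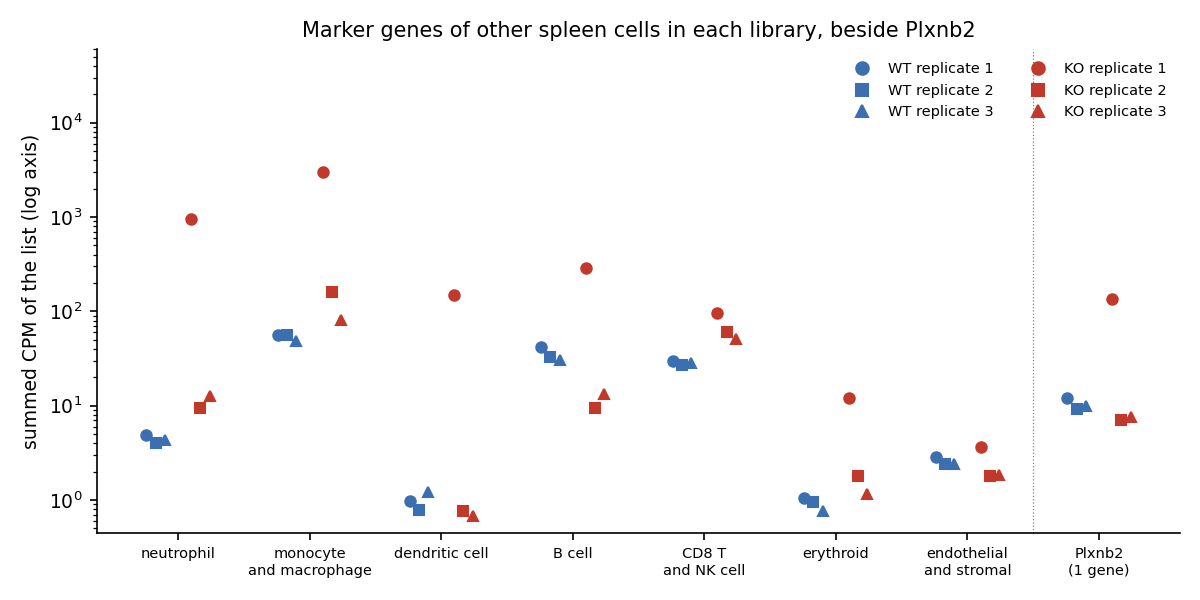
Summed CPM (log axis) of the marker lists of other spleen cells in each library, with Plxnb2 alone at the right. WT libraries are blue, KO libraries red, and symbols give the replicate. KO replicate 1 is the highest point in every list, by 121-fold for the dendritic cell genes, and it is the high point of Plxnb2 at 134 CPM.

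In miR-142-deficient Treg cells, Sema7a, Nrp2, Plxnd1 and Sema4d rose and Nrp1 fell. The rises ranged from 1.41-fold for Sema4d to 5.86-fold for Sema7a, and Nrp1 fell to 0.634 of its WT level. Sema4a, Sema4b, Plxnb2 and Plxnc1 did not pass the test. Among all 11658 genes tested with edgeR, 11.6% were called higher and 7.27% lower in KO at a false discovery rate (FDR) under 0.05, which makes 18.8% in either direction, against 4 and 1 of the 9 genes. The median log2 fold change of the 9 genes was 0.50, and that of all tested genes was 0.016. Without KO replicate 1 the median of the 9 was that of Sema4b, 0.13, and that of all tested genes was -0.016. The same 5 genes were those in which the ranges of the groups were separate. All KO libraries lay above all WT libraries in 22.2% of the tested genes and below them in 18.8%, 41% in either direction. For any such gene an exact two-sided permutation test over libraries gave p = 0.1, the smallest that 3 libraries against 3 allow, so each call comes from the edgeR model and not from the single gene alone. In sorted cells sequenced in bulk, fewer cells that express a gene and less of its RNA per cell cannot be told apart. Without KO replicate 1, the number called remained 4 higher and 1 lower, and they were the same 5 genes, against 9.69% of all 11429 genes tested there called higher and 7.59% lower. Without WT replicate 2, and likewise without WT replicate 3, only Sema7a and Plxnd1 were called higher, and Nrp1 was still called lower. Calls also fell over all genes, from 1350 higher and 847 lower with every library kept. They were 483 and 208 of 11551 tested genes without WT replicate 2, and 555 and 235 of 11540 without WT replicate 3.

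**Figure D2:**
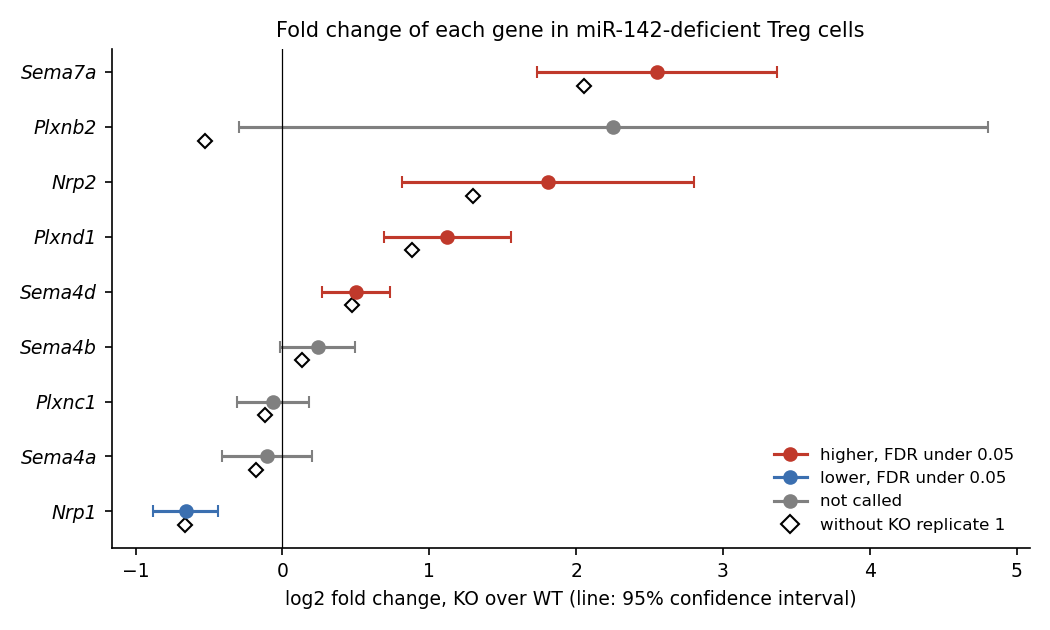
Log2 fold change of each gene, KO over WT, with its 95% confidence interval. Red points were called higher, blue lower and grey not called at an FDR under 0.05, and open diamonds give the value without KO replicate 1. The 5 called genes keep their side of 0 without that library, and Plxnb2 crosses from 2.25 to -0.53.

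Nrp1, the co-receptor with the higher level of the pair, had 541, 539 and 522 CPM in WT replicates 1, 2 and 3, and 334, 311 and 370.4 CPM in KO replicates 1, 2 and 3. The WT libraries lay within 20 CPM of each other, and every KO library lay below all of them. The log2 fold change was -0.66 (95% CI -0.88 to -0.44, FDR = 0.00497). KO replicate 1, the library with the highest sums of other cells' markers, lay between the other KO libraries. Without KO replicate 1 the log2 fold change was -0.67 (FDR = 0.00694). Nrp1 was called lower in every alternative run, 15 in all, with log2 fold changes from -0.74 to -0.59. Nrp1 lies at chr8:128358604-128503363 on the plus strand of GRCm38, and the 9438 counts of WT replicate 3 and 5412 of KO replicate 3 illustrate the depth behind its values.

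Nrp2, the co-receptor for Sema3f and VEGF-C, was a low transcript in WT Treg cells. It had 4.99, 5.08 and 3.54 CPM in WT, from 64 to 124 counts, and 24.9, 15.4 and 7.32 CPM in KO replicates 1, 2 and 3, from 107 to 449 counts. All KO libraries were above all WT libraries, but they differed among themselves, and KO replicate 1 was the highest. KO exceeded WT by a log2 fold change of 1.81 (95% CI 0.81 to 2.80, FDR = 0.027), and without KO replicate 1 it was 1.30 (FDR = 0.0308). The call was lost without WT replicate 1 (FDR = 0.0843), without WT replicate 2 (FDR = 0.0935) and without WT replicate 3 (FDR = 0.101). The ratio of Nrp2 to Nrp1 CPM was between 0.00678 and 0.00943 in the WT libraries and was 0.0746, 0.0494 and 0.0198 in the KO libraries, so Nrp1 had more counts than Nrp2 in every library. Nrp2 lies at chr1:62703285-62818695 on the plus strand.

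**Figure D3:**
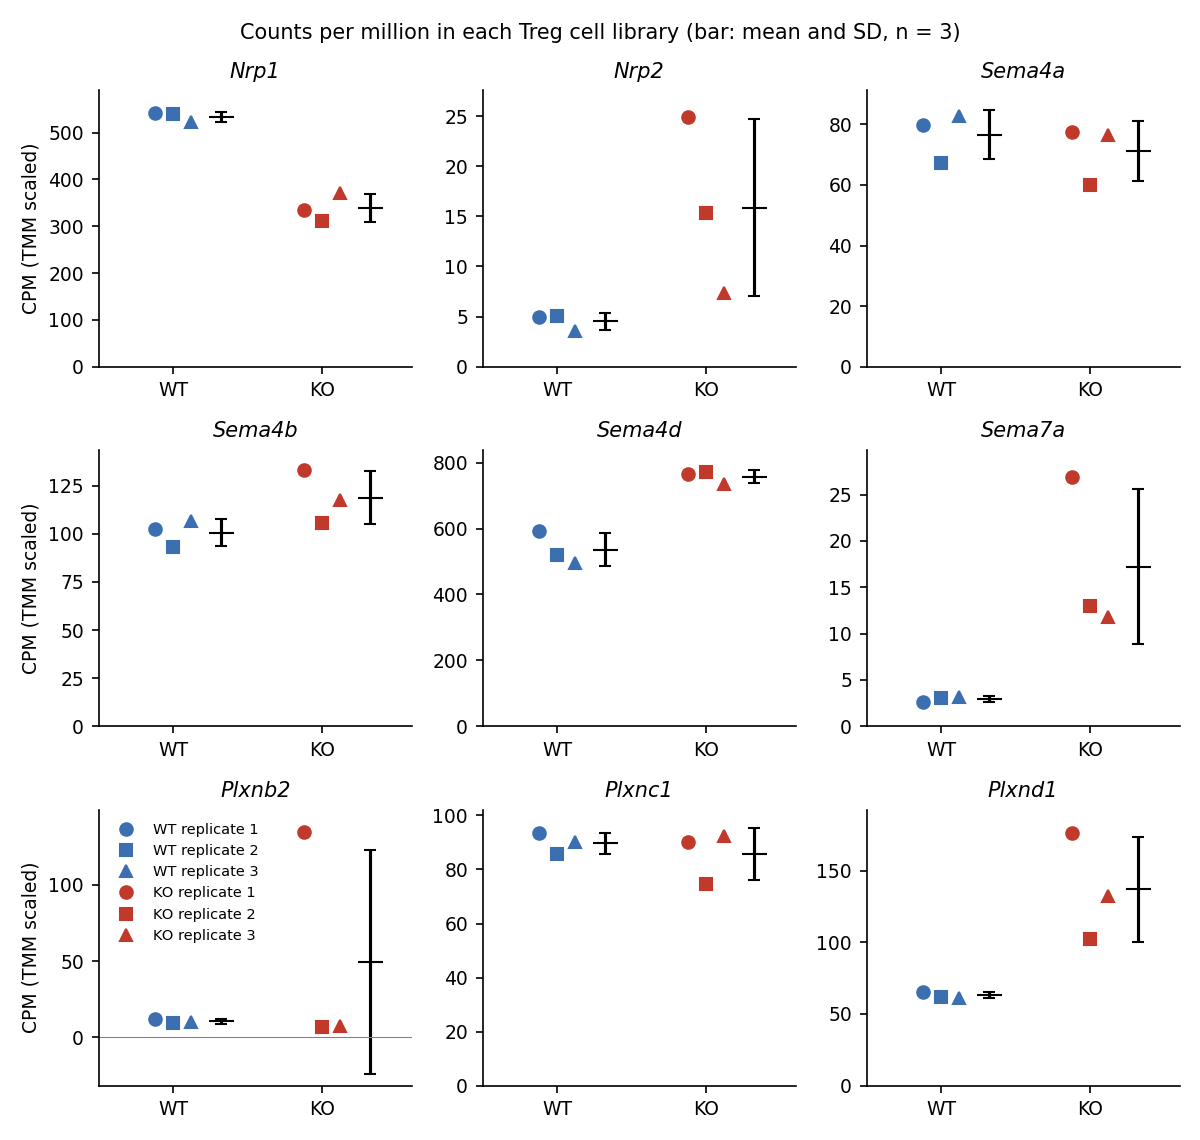
CPM of each gene in every library, on axes that include 0. WT libraries are blue and KO libraries red, symbols give the replicate, and the bar beside each group is the mean with its SD (n = 3). Nrp1 is separated downward, Nrp2, Sema4d, Sema7a and Plxnd1 upward, and the KO spread of Plxnb2 comes from 1 library.

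Among the semaphorins, Sema7a and Sema4d rose and Sema4a and Sema4b were not called. Sema7a is anchored to the membrane by a lipid (GPI) tail and signals through Plxnc1 and through integrins with the beta1 chain. It had 2.59, 3.07 and 3.15 CPM in WT, from 42 to 75 counts, and 26.9, 13.0 and 11.8 CPM in KO replicates 1, 2 and 3, from 172 to 485 counts. The lowest KO library was over 3 times the highest WT library, and KO replicate 1 was 2.07 times the next highest. This was a log2 fold change of 2.55 (95% CI 1.73 to 3.37, FDR = 0.00443), and without KO replicate 1 it was 2.05 (FDR = 0.000626). Sema7a was called higher in all 15 alternatives, and its 3′ UTR holds the miR-142-5p match printed above. Sema7a lies at chr9:57940112-57962865 on the plus strand.

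Sema4d, also known as CD100, is the semaphorin that T cells are best known for, and it binds Plxnb1 and, in lymphoid tissue, CD72. It had 592, 519 and 496 CPM in WT and 766, 770.3 and 735 CPM in KO. The KO libraries were close together, with an SD of 19.3 CPM, and all lay above the WT libraries, which had an SD of 50.1 CPM. The log2 fold change was 0.50 (95% CI 0.27 to 0.73, FDR = 0.0153), and without KO replicate 1 it was 0.47 (FDR = 0.0259). The call was lost without WT replicate 2 (FDR = 0.0811) and without WT replicate 3 (FDR = 0.0757). Sema4d lies at chr13:51685529-51793747 on the minus strand.

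Sema4a, a ligand of Nrp1 and of several plexins, had 79.8, 67.3 and 82.7 CPM in WT and 77.4, 60.0 and 76.4 CPM in KO. The groups overlapped, and the lowest library of each group was its replicate 2. Between the groups the log2 fold change was -0.10, with a 95% CI of -0.41 to 0.20 (FDR = 0.619), and without KO replicate 1 it was -0.18 (FDR = 0.402). Sema4b, another membrane semaphorin of the same class, had 103, 93.1 and 106.5 CPM in WT and 133, 105.6 and 118 CPM in KO. The lowest KO library, replicate 2, lay just under the highest WT library, so the groups overlapped. It amounted to a log2 fold change of 0.24 (95% CI -0.015 to 0.50, FDR = 0.166), and to 0.13 without KO replicate 1 (FDR = 0.405). Sema4a lies at chr3:88435959-88461182 on the minus strand and Sema4b at chr7:80186841-80226527 on the plus strand.

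Of the plexins, only Plxnd1 was called among the 3 described here. Plxnd1 is the receptor of Sema3e and is known for guiding blood vessels and migrating thymocytes. It had 65.3, 61.9 and 61.5 CPM in WT and 176, 103 and 132 CPM in KO replicates 1, 2 and 3. The WT libraries were nearly alike, with an SD of 2.09 CPM, and every KO library was above them, with an SD of 36.9 CPM. In the fit, Plxnd1 had a log2 fold change of 1.12 (95% CI 0.69 to 1.55, FDR = 0.00813), and without KO replicate 1 it was 0.88 (FDR = 0.00276). Plxnd1 was called higher in all 15 alternatives, and its 3′ UTR holds the overlapping miR-142-3p matches printed above. Plxnd1 lies at chr6:115954811-115995005 on the minus strand.

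Plxnc1, the plexin that binds Sema7a, had 93.5, 85.6 and 90.1 CPM in WT and 90.3, 74.6 and 92.2 CPM in KO. The groups overlapped, and KO replicate 2 was the only library under 80 CPM. KO differed from WT by a log2 fold change of -0.066, with a 95% CI of -0.31 to 0.18 (FDR = 0.694), and by -0.12 without KO replicate 1 (FDR = 0.512). Its 3′ UTR holds the miR-142-3p match to bases 3 to 9 printed above. Plxnc1 lies at chr10:94790866-94944835 on the minus strand.

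Plxnb2, a receptor of class 4 semaphorins, followed 1 library. It had 12.1, 9.31 and 10.01 CPM in WT, and 134 CPM in KO replicate 1 against 7.04 and 7.596 CPM in KO replicates 2 and 3. KO replicate 1 was 11.1 times the highest other library, and the other KO libraries lay below all WT libraries. With all libraries the log2 fold change was 2.25 with a 95% CI of -0.30 to 4.81 (FDR = 0.189), and without KO replicate 1 it was -0.53 (FDR = 0.1), so neither value passed the test and the direction turned. The library with the high Plxnb2 is the library with 2972 summed CPM of monocyte and macrophage genes and 148 summed CPM of dendritic cell genes, and their part in this value was not tested. Plxnb2 lies at chr15:89155549-89180788 on the minus strand.

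**Figure D4:**
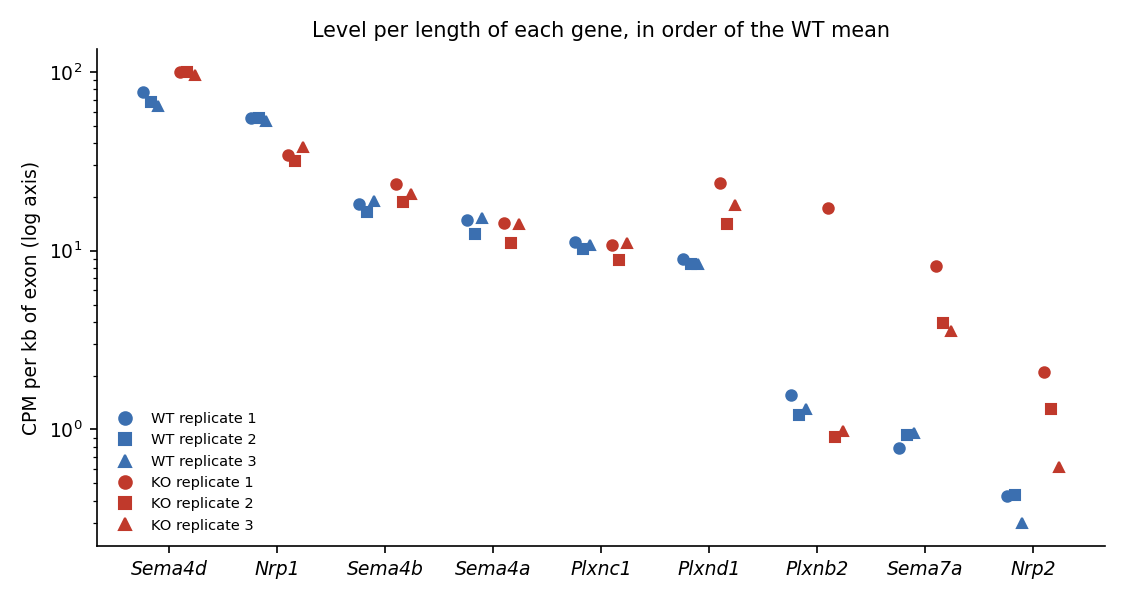
Level per length, CPM divided by the kilobases of annotated exons, on a log axis, for each gene in order of its WT mean. WT libraries are blue and KO libraries red, and symbols give the replicate. Sema4d and Nrp1 stand above the rest, the WT means run down to 0.383 for Nrp2, and Plxnd1 in KO reaches the range of Sema4b.

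Levels of different genes were compared per length, as CPM per kilobase over the union of each gene's exons, with no test. In WT Treg cells, Sema4d (69.7 ± 6.52, SD, n = 3) and Nrp1 (54.6 ± 1.07) were the highest. Sema4b (17.8 ± 1.22), Sema4a (14.2 ± 1.51), Plxnc1 (10.7 ± 0.474) and Plxnd1 (8.61 ± 0.287) followed. Plxnb2 (1.36 ± 0.186), Sema7a (0.891 ± 0.0930) and Nrp2 (0.383 ± 0.0730) were the lowest. The libraries of neighbours in this order did not overlap in any of the 8 pairs. In KO, the level per length of Sema4d was 98.6 ± 2.52 and that of Nrp1 34.6 ± 3.06. Plxnd1, at 18.7 ± 5.05, moved up to between Sema4b (21.1 ± 2.48) and Sema4a (13.2 ± 1.81), and its libraries overlapped with those of both. Over the longest transcript it stayed below Sema4a in KO, at 19.8 ± 5.34 against 22.2 ± 3.06. Plxnb2 overlapped with Plxnc1 above it and Sema7a below it, so 4 of the 8 neighbouring pairs did not differ beyond their spread in KO. The order of the leading pair in WT depends on the length used. Over the longest annotated transcript, the level per length of Nrp1 was 147 ± 2.88 and that of Sema4d 119 ± 11.2, since the annotated exons of Nrp1 add up to 9785 bases and its longest transcript to 3645.

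Of the 22 other semaphorins and plexins in the count table, 9 passed the filter on low counts and 13 did not. Of these 9 tested genes, 0 were called in either direction by edgeR's quasi-likelihood test, against 18.8% of all tested genes. Among the 9, 3 (Sema3d, Sema4f and Plxnb1) had an unadjusted p under 0.05, each with a negative log2 fold change. Many genes met that unadjusted threshold. L1cam, a gene outside these families that also met it, ranked only 3893 of the 11658 tested genes. The 3 of 9 therefore do not stand out from all tested genes. DESeq2 called 1 of the 9, Sema4f, lower. Sema4f had 22.2, 17.4 and 20.3 CPM in WT and 15.2, 12.5 and 15.5 CPM in KO (log2 fold change -0.47, FDR = 0.0712). Plxnb1, the receptor of Sema4d, had 24.5, 21.1 and 22.2 CPM in WT and 18.6, 17.3 and 19.0 CPM in KO (log2 fold change -0.30, 95% CI -0.58 to -0.033, FDR = 0.109). Its KO libraries lay below its WT libraries, as in 18.8% of all tested genes, while those of Sema4d lay above, as in 22.2%. Sema6d and Plxna1, a ligand and its receptor, had the pattern of Plxnb2 in part. Sema6d had 66.0 CPM and Plxna1 81.7 CPM in KO replicate 1, against at most 20.7 and 28.1 CPM in every other library, and neither was called (FDR = 0.159 and 0.19). Their log2 fold changes were 1.062 and 0.87, and 0.24 and 0.12 without KO replicate 1.

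**Figure D5:**
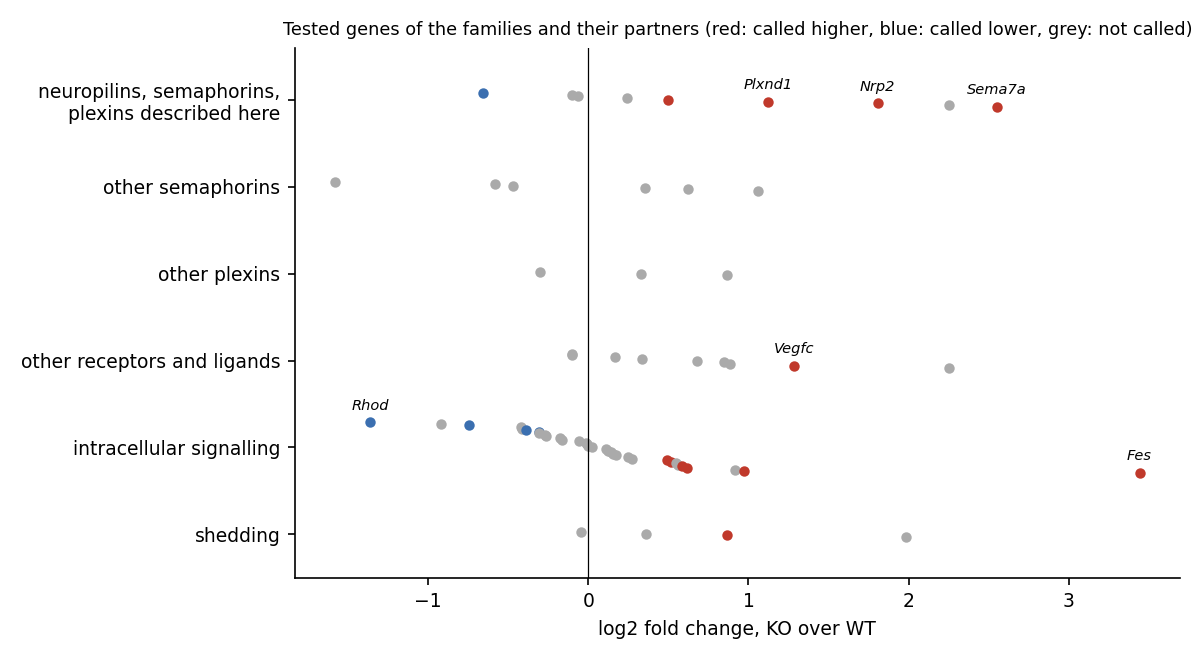
Log2 fold change, KO over WT, of every tested gene of the families and of their partners, 1 point per gene, spread vertically only for legibility. Red was called higher, blue lower and grey not called. Mras, which had 1 count in all WT libraries together, is left out. The 9 other semaphorins and plexins are all grey, and the called partners lie between -1.36 for Rhod and 3.44 for Fes.

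The partner genes were further receptors and ligands, intracellular signalling proteins and the proteases that trim these molecules. Of 62 partners in the count table, 47 were tested, 9 (19.1%) were called higher and 4 (8.51%) lower in KO, against 11.6% and 7.27% of all tested genes. Their median log2 fold change was 0.15. The 9 include Mras, Vegfc and Fes, with fewer than 3 WT libraries above 1 CPM, and the 4 include Rhod, with fewer than 3 KO libraries above it, so these genes passed the filter only with libraries of the group in which they were higher, and the shares are a description, not support. Without KO replicate 1 the counts were 8 higher and 5 lower, beside 1107 and 868 over all tested genes. Leaving out WT replicate 1 gave 5 and 0 (666 and 356 over all), and WT replicate 2 gave 4 and 0 (483 and 208). Leaving out WT replicate 3 gave 5 and 1 (555 and 235), and KO replicate 3 gave 7 and 2 (874 and 637). With every library kept, 1350 of all tested genes were higher and 847 lower, so calls over all genes fell in these fits too, except for the 868 lower.

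Of 9 tested receptors and ligands, 1 was called. Vegfc, which encodes a ligand of Nrp2, had 1.11, 0.820 and 0.940 CPM in WT and 2.28, 2.80 and 1.92 CPM in KO (log2 fold change 1.29, FDR = 0.0208). Vegfc was a very low transcript that passed the filter only with its KO libraries. Its KO libraries were all above its WT libraries, as in 5 of the 9 tested receptors and ligands and in 22.2% of all tested genes. Itgb1, the integrin chain that Sema7a signals through, had a log2 fold change of -0.10 (FDR = 0.606), and neither Itgb1 nor Cd72 was called. Cd72 had 50.7 CPM in KO replicate 1 and at most 20.1 CPM elsewhere, and its log2 fold change of 0.68 (FDR = 0.334) turned to -0.093 (FDR = 0.806) without that library.

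Of 34 tested intracellular genes, 7 were called higher and 4 lower. Arhgef12, a guanine nucleotide exchange factor that binds class B plexins, had 97.9, 92.8 and 94.1 CPM in WT and 158, 179 and 220.1 CPM in KO (log2 fold change 0.97, FDR = 0.00381). Its sister Arhgef11 was not called, at -0.42 (FDR = 0.11). Rac1, a small GTPase that binds plexins, had a log2 fold change of 0.52 (FDR = 0.0076), and the Ras family GTPase Rras2 had 0.62 (FDR = 0.0331). Mical1, an enzyme that disassembles actin filaments downstream of plexins, had 0.49 (FDR = 0.0269). The LIM kinases, which inactivate cofilin, moved apart. Limk1 rose by 0.58 on the log2 scale (FDR = 0.0234), and Limk2 fell by 0.31 (FDR = 0.0264). Fyn, a kinase of semaphorin and T cell receptor signalling, fell by 0.39 (FDR = 0.0397), and its FDR was 0.0665 without KO replicate 1. Dpysl2, a cytoskeletal mediator of semaphorin signalling, fell by 0.74 (FDR = 0.0384), and Rhod, a small GTPase, fell by 1.36 (FDR = 0.0397).

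Fes and Mras leaned on KO replicate 1 or on almost empty WT libraries. Fes, a kinase that plexins can engage, had 39.9 CPM in KO replicate 1, 6.36 and 4.24 CPM in KO replicates 2 and 3 and between 0.943 and 2.16 CPM in WT. Its log2 fold change was 3.44 (FDR = 0.0379), and 1.76 (FDR = 0.0155) without KO replicate 1. Mras, a Ras family GTPase, had 0, 0 and 1 counts in WT and 141 counts in the KO libraries together, a ratio of 181 with a 95% counting interval of 31.9 to 7183. It passed the filter through its 3 KO libraries alone, so it had to differ, and without KO replicate 1 it could not pass.

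Of 4 tested proteases, 1 was called. Furin, the convertase that cleaves semaphorin precursors, had 112, 106 and 109 CPM in WT and 191, 215 and 189 CPM in KO (log2 fold change 0.87, FDR = 0.00138). Its groups were far apart for their spread, and without KO replicate 1 the log2 fold change was 0.88 (FDR = 0.00108). Adam17, which sheds membrane proteins, was higher in every KO library than in any WT library but was not called, with a log2 fold change of 0.36 (FDR = 0.19), and of 0.10 without KO replicate 1 (FDR = 0.466). Mmp14, a membrane protease that can release Sema4d, had 91.1 CPM in KO replicate 1 and between 7.08 and 20.97 CPM elsewhere. Its log2 fold change was 1.98 (FDR = 0.0785), and 0.74 without KO replicate 1 (FDR = 0.096).

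The genes whose log2 CPM followed Nrp1 most closely over the 6 libraries were Zhx2 (Pearson's r = 0.998), Helq (0.995) and Dhrs13 (0.995), as a description over 6 points that fall into the WT and KO groups. Zhx2, a transcriptional repressor, had 152, 157 and 152 CPM in WT and 81.2, 76.9 and 97.5 CPM in KO, with the highest KO value in replicate 3, as for Nrp1.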

How the data were processed

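RNA-seq libraries of 6 mice (3 WT, 3 KO) were analysed. Per the methods of the study, 51-base single-end reads were mapped to mm10 with HISAT and counted per gene without regard to strand with featureCounts, and the authors deposited raw counts without normalization. The versions and the annotation are not given in the sources used here. Other genes of the count table overlapped at most 1.35% of the exons of any of the 9 genes and held at most 1 count per library.

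The test was the quasi-likelihood F test of edgeR 4.0.16 (R 4.3.3) after TMM, for the 11658 genes whose CPM exceeded 1 in 3 or more libraries, with Benjamini-Hochberg FDR under 0.05 over all of them. SEs and 95% intervals come from that model. Alternatives were other normalizations, filters, thresholds and dispersions, DESeq2 1.42.0, a replicate block and leaving out each library. Lengths, positions and 3′ UTRs came from GENCODE M21 (GRCm38, the same assembly as mm10) by symbol, with all 9 genes matched, and microRNA sequences from RefSeq (GRCm38.p6). Permutation tests and correlations used log2 of CPM plus 0.5. The steps were tested on simulated data.

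Groups came from sample titles. The genes, lists and tests were chosen with earlier results of these data known. All 9 genes are described, partners called at an FDR under 0.05 could be named, and the 3 genes nearest Nrp1 were taken by correlation. Arhgef11, Itgb1, L1cam, Cd72, Adam17, Mmp14, Sema3d, Sema4f, Sema6d, Plxna1, Plxnb1 and the single marker genes of Treg and other cells were named after their values were seen. Each mouse gave 1 library, so p-values cover the spread between mice.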

Additional observations from a re-analysis of the deposited data

How the results depend on the processing

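Nrp1, Sema7a and Plxnd1 kept their calls in all 15 alternatives, and Sema4b stayed uncalled in all of them. Without KO replicate 1 the log2 fold change of Plxnb2 was -0.53, and without KO replicate 2 those of Sema4a and Plxnc1 were 0.013 and 0.031, none of them called. At an FDR under 0.01, 490 genes were called higher and 196 lower, among them 2 of the 9 genes higher (Sema7a and Plxnd1), with 4 partners higher and 0 lower. With library size alone in place of TMM, 1064 genes were higher and 1201 lower, against 1350 and 847, and the 5 calls among the 9 genes stayed. With no filter on low counts 2 partners were lower, and DESeq2 called 1 other semaphorin, Sema4f, lower. Counting only 8-base sites, 0 of the 9 genes held a miR-142-3p site and 0 a miR-142-5p site, a stricter definition by construction.

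Leaving out each library in turn, with fewer libraries per group, gave between 483 and 1403 genes higher and between 208 and 937 lower, with 666 and 356 without WT replicate 1, 483 and 208 without WT replicate 2, 555 and 235 without WT replicate 3 and 874 and 637 without KO replicate 3. Of the 9 genes, between 2 and 4 were higher and 1 was lower in every such fit. Between 4 and 11 partners were higher and between 0 and 5 lower. Other semaphorins and plexins had between 0 and 1 lower (Sema3d, without KO replicate 2). Sema3d passed the filter of that fit through its WT libraries alone, so its call there is no support. The log2 fold changes ranged from -0.19 to 0.013 for Sema4a, from -0.53 to 2.78 for Plxnb2 and from -0.14 to 0.031 for Plxnc1.

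Replicate numbers are shared between the groups, but same-numbered libraries did not deviate together (correlations of 0.0804, -0.0056 and -0.195). With the replicate number as a block, the calls among the 9 genes were 4 higher and 1 lower, 545 genes were lower and 1061 higher over all, and 1 partner was lower. Among the 9 genes, Sema7a (42 to 75 counts) and Nrp2 (64 to 124) had the fewest counts in WT.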
